A study of Mus musculus with 9 samples.

Results

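The Ly6 cluster of mouse chromosome 15 was described in adipocytes made in culture from inguinal fat, through 9 of the 24013 gene symbols measured. The members were Ly6a, Ly6c1, Ly6c2, Ly6d, Ly6e, Ly6h, Ly6k, Psca and Gpihbp1, chosen by symbol, and all 9 were found in all 9 libraries. They were chosen because Psca and Ly6k differed strongly between the 129 and B6 strains in these libraries, so differences of members between 129 and B6 are given as a description, with no test.

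Poly(A) RNA was sequenced at day 7 from stromal vascular cells of inguinal fat, a subcutaneous depot whose precursors can form beige adipocytes, after differentiation in culture. There were 3 libraries of F1 offspring of the 2 strains, 3 of 129X1/SvJ (129) and 3 of C57BL/6J (B6). All groups received the same agents. For the first 48 h these were 1 µM rosiglitazone, 1 nM T3, 850 nM insulin, 1 µM dexamethasone, 125 nM indomethacin and 0.5 mM isobutylmethylxanthine in 10% fetal bovine serum, after which dexamethasone, indomethacin and isobutylmethylxanthine were left out. The labels used here do not state the age of the mice, the mother's strain of the F1, or whether replicates are different animals or cultures. P-values therefore speak of the spread among the libraries, which may be technical. The deposited unit was RPKM, reads per kilobase of exon per 1000000 assigned reads. Depth was 39686986 to 53410947 assigned reads in F1, 23710908 to 28473083 in 129 and 19130022 to 26931438 in B6, so every F1 library was deeper than every parental one. Markers of mature adipocytes were measured in every library, with 12 of 12 passing the filter on low values and summing to 35408 to 37692 RPKM in F1, 31388 to 33696 in 129 and 27282 to 31237 in B6.

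Ly6 proteins are small, cysteine-rich proteins that fold into finger-like loops, and most are held at the outer cell surface by a glycosylphosphatidylinositol (GPI) lipid anchor. Ly6a encodes Sca-1, used to sort adipocyte progenitors from the stromal vascular fraction and known from haematopoietic stem cells. Gpihbp1 encodes the endothelial protein that carries lipoprotein lipase across capillaries, where the enzyme releases fatty acids from circulating lipoproteins for uptake by fat and muscle.

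In the deposited mm9 coordinates the members lay on chromosome 15 over 883.375 kb, from 74545269 to 75428643. Psca (74545269 to 74547495, plus strand), Ly6d (74592486 to 74593997, minus), Ly6k (74627304 to 74630398, minus), Ly6e (74785481 to 74790335, plus), Ly6a (74825307 to 74828461, minus), Ly6c1 (74874448 to 74879267, minus) and Ly6c2 (74938591 to 74942379, minus) filled the first 397.111 kb. Ly6h (75395175 to 75397612, minus) and Gpihbp1 (75427088 to 75428643, plus) followed after a gap of 452.795 kb. In this annotation 0 members overlapped another gene.

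Ly6c1 and Ly6c2 are close copies and Ly6a shares stretches with Ly6c1, which bears on how their reads could be assigned. In GENCODE M21 protein-coding transcripts, 252 of the 817 distinct 50-base windows of Ly6c2 (30.8%) were also present in Ly6c1, and 195 of the 1764 of Ly6c1 (11.1%) were also present in Ly6a. Counting every other family gene searched, 17.7% of the windows of Ly6a, 25.6% of those of Ly6c1 and 31.2% of those of Ly6c2 were shared, and 0 windows of the other 6 members. The levels of Ly6a, Ly6c1 and Ly6c2 are therefore uncertain to the extent that reads were split among copies. The upstream stretches of Ly6c1 and Ly6c2 are shown because they let the likeness of this pair be read directly. They come from RefSeq on build GRCm38.p6, which is not the build of the deposited coordinates, and the capitals mark the 50 bases from the annotated start. An entry was matched for 2 of the 9 members.
Ly6c1, chr15:75048788-75049087, minus strand: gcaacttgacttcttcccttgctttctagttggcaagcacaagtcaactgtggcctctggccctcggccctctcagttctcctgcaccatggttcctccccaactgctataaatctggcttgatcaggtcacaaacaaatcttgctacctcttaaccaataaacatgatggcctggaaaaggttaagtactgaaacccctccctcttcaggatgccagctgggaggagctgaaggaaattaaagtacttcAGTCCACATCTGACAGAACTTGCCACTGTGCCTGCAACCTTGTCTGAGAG
Ly6c2, chr15:75111922-75112221, minus strand: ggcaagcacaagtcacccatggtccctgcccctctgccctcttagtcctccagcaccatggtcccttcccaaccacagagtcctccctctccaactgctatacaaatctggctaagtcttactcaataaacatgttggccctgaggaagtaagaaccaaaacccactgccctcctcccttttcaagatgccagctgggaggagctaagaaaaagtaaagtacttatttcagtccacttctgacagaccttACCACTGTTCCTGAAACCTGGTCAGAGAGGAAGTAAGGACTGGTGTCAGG
Aligned over 260 bases, 214 were identical, or 82.3%. Motifs were searched on both strands of these 2 stretches and of all 32851 promoters of the same length. The core of the interferon-stimulated response element, GAAA and GAAA with any 2 bases between them, matched neither stretch and 3.44% of all promoters. The gamma-activated site, TTCNNNGAA, matched neither and 8.30% of all. One arm of the site of the NFI family of transcription factors, TTGGC, matched once in each and in 46.7% of all. The whole palindromic site, TTGGC and GCCAA with any 5 bases between them, contains that arm and matched neither stretch and 0.0365% of all.

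Ly6a, Ly6c1 and Ly6e supplied nearly all of the cluster's RNA, and Psca and Ly6k were the members listed at or close to 0 in B6. The first 3 together made up 98.8% to 99.6% of the summed member RPKM of each library, and Ly6a alone ranked between 120 and 291 among all genes. The other 6 members had no library above 3.13 RPKM. limma was fitted on log2(RPKM + 1) to the 11542 genes that reached 1 RPKM in 3 or more of the 9 libraries. The filter was passed by 6 members, Ly6a, Ly6c1, Ly6e, Ly6h, Ly6k and Psca, and not by Ly6c2, Ly6d and Gpihbp1. Psca and Ly6k each passed through their 3 libraries of 129 and 1 of F1, and Ly6h through its 3 libraries of B6 and 1 of 129. Among the 6, the 129 and B6 libraries did not overlap with 129 above in 2 (Psca and Ly6k), did not overlap with 129 below in 3 (Ly6a, Ly6c1 and Ly6h), and overlapped in 1 (Ly6e). Over all genes tested, 20.8% did not overlap with 129 above and 29.0% with 129 below. The members were chosen on this contrast, so nothing is read from these counts.

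**Figure D1:**
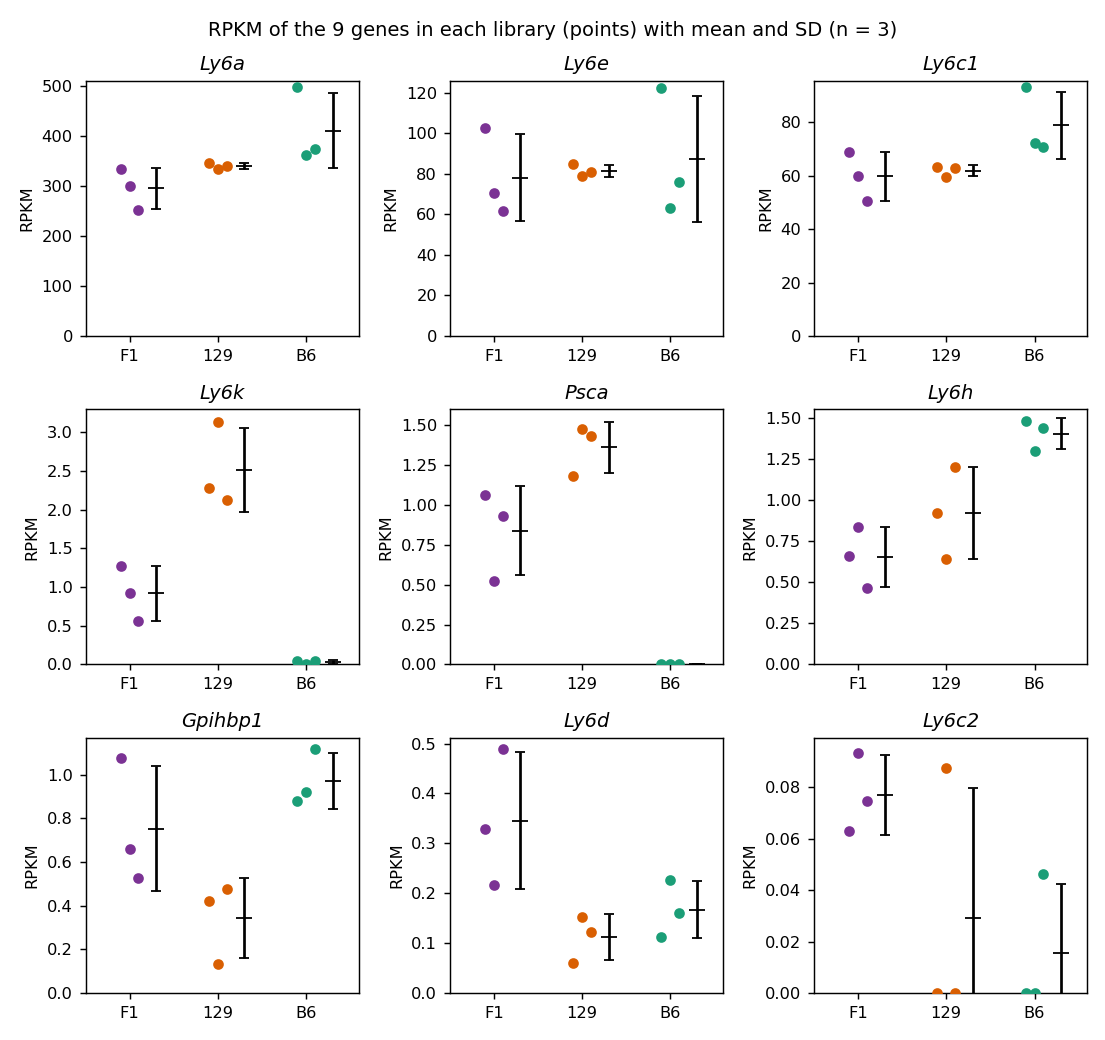
RPKM of the 9 members in each library of F1, 129 and B6, with points for libraries and, beside them, the group mean with its SD (n = 3). Ly6a lay at 253 to 335 RPKM in F1, 334 to 346 in 129 and 362 to 498 in B6, while Psca was at 0 in all 3 libraries of B6.

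Psca, prostate stem cell antigen, is a GPI-anchored protein known from epithelia of prostate, bladder and stomach. It had 1.06, 0.525 and 0.930 RPKM in F1 replicates 1 to 3, 1.18, 1.48 and 1.43 in 129, and 0, 0 and 0 in B6. All libraries of 129 lay above all of F1, and all of F1 above all of B6. The values rested on 100 reads in F1, 89 in 129 and 0 in B6. Means were 0.838 ± 0.279 RPKM in F1, 1.36 ± 0.160 in 129 and 0 in B6 (SD, n = 3 each). A floor of 3 reads over the B6 group equals 0.0489 RPKM. Pooled reads of Psca in 129, scaled by depth, lay 28.0-fold above that floor for B6. This allows for counting error in B6 but not for that of the 89 reads in 129. The log2(RPKM + 1) difference, 129 minus B6, was 1.24 with a standard error (SE) of 0.11, a scale that understates changes of genes this low.

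Ly6k, which in mouse is known from testicular germ cells and is needed for sperm to pass into the oviduct, had 1.27, 0.920 and 0.567 RPKM in F1, 2.28, 3.13 and 2.13 in 129, and 0.0504, 0 and 0.0480 in B6. The 3 groups again did not overlap, with 129 highest and B6 lowest. Reads numbered 99 in F1, 150 in 129 and 2 in B6. Means were 0.919 ± 0.352 RPKM in F1, 2.52 ± 0.542 in 129 and 0.0328 ± 0.0284 in B6 (SD, n = 3 each). The ratio of pooled reads, scaled by depth, was 70.8 for 129 over B6, with an exact Clopper-Pearson 95% interval of 19.3 to 590 that covers counting error only. On the log2(RPKM + 1) scale the difference was 1.76 (SE 0.14).

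Epithelial and mesothelial markers, set beside Psca because of its known sites of expression, were led by 1 gene. Krt19, an epithelial keratin, averaged 16.1 ± 1.25 RPKM in F1, 16.0 ± 1.36 in 129 and 8.21 ± 0.536 in B6 (SD, n = 3 each), a log2 difference between 129 and B6 of 0.88 (SE 0.07, limma adjusted p = 5.42e-06). It was 1 of 1 tested of the 11 markers, the other 10 being under 1 RPKM in every library and Krt14 listed at 0 in all. The summed level of the list was 15.6 to 18.2 RPKM in F1, 15.7 to 18.1 in 129 and 7.94 to 9.11 in B6. Its part in the Psca values was not tested. In bulk RNA, fewer cells of a type and less RNA per cell cannot be told apart.

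Ly6a, the Sca-1 gene, had 335, 300 and 253 RPKM in F1, 346, 334 and 341 in 129, and 498, 362 and 374 in B6. All B6 libraries lay above all libraries of 129 and of F1, and F1 overlapped 129. Means were 296 ± 41.3 RPKM in F1, 340 ± 5.76 in 129 and 411 ± 75.4 in B6 (SD, n = 3 each). The log2 difference, 129 minus B6, was -0.26 (SE 0.12), and -0.11 without B6 replicate 1.

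Ly6c1, a surface antigen known from endothelial cells and T cells, had 68.8, 60.0 and 50.4 RPKM in F1, 63.3, 59.5 and 63.0 in 129, and 93.3, 72.3 and 70.9 in B6. As for Ly6a, every B6 library lay above every other, and F1 and 129 overlapped. Means were 59.8 ± 9.20 RPKM in F1, 61.9 ± 2.09 in 129 and 78.8 ± 12.5 in B6 (SD, n = 3 each), a log2 difference between 129 and B6 of -0.33 (SE 0.12), and of -0.21 without B6 replicate 1. The ratio of Ly6a to Ly6c1 in RPKM stayed between 4.87 and 5.61 over the 9 libraries.

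Ly6e, an interferon-induced member that in mouse is the receptor of the placental fusion protein syncytin-A, had 102, 70.3 and 61.6 RPKM in F1, 84.8, 78.8 and 80.9 in 129, and 122, 63.2 and 75.9 in B6. The groups overlapped, and replicate 1 was the highest library of F1 and of B6. Means were 78.1 ± 21.4 RPKM in F1, 81.5 ± 3.05 in 129 and 87.2 ± 31.1 in B6 (SD, n = 3 each). The log2 difference between 129 and B6 was -0.04 (SE 0.22), and it was 0.23 without B6 replicate 1.

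Replicates of F1 and B6 spread more widely than those of 129 in all 3 abundant members, and interferon response genes spread in the same libraries. The coefficient of variation of Ly6a was 13.9% in F1, 1.69% in 129 and 18.3% in B6. It was 15.4% in F1, 3.38% in 129 and 15.9% in B6 for Ly6c1, and 27.5% in F1, 3.74% in 129 and 35.7% in B6 for Ly6e. Ly6a and Ly6e are both known to be induced by interferon. The mean log2(RPKM + 1) of the 23 tested genes of a 30-gene interferon list was 2.88, 2.41 and 2.12 in F1 replicates 1 to 3, 2.53, 2.51 and 2.52 in 129, and 4.17, 2.62 and 2.85 in B6. Replicate 1 was thus the highest for the list and for Ly6a, Ly6c1 and Ly6e within both F1 and B6. Summed RPKM of the list was 125 to 212 in F1, 164 to 169 in 129 and 174 to 564 in B6.

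The interferon list itself had 1 gene higher and 4 lower in 129 than in B6, and 18 not called, with a median log2 difference of -0.68 against -0.03 over all genes tested. Over all genes, 15.9% were called higher and 21.7% lower in 129. Gbp3, an interferon-induced GTPase, averaged 5.61 ± 1.72 RPKM in F1, 4.71 ± 0.507 in 129 and 17.6 ± 12.7 in B6 (SD, n = 3 each), a log2 difference between 129 and B6 of -1.50 (limma adjusted p = 0.00792). Irgm1, a GTPase of defence inside cells, differed by -0.90 (adjusted p = 0.0318), and Xaf1, a factor that promotes cell death, by 1.03 in the other direction (adjusted p = 0.0214). These counts rested on single libraries. Without B6 replicate 1 the list's median was -0.21, with 1 gene higher and 3 lower, and Gbp3 differed by -0.97 and Irgm1 by -0.46, both still called. Without B6 replicate 2, 0 were higher and 16 lower, with a median of -1.001. Xaf1 lost its call without any 1 library of 129 and without B6 replicate 2 or 3, and Irgm1 without any 1 library of 129. The part of this list in the Ly6a, Ly6c1 and Ly6e values was not tested.

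**Figure D2:**
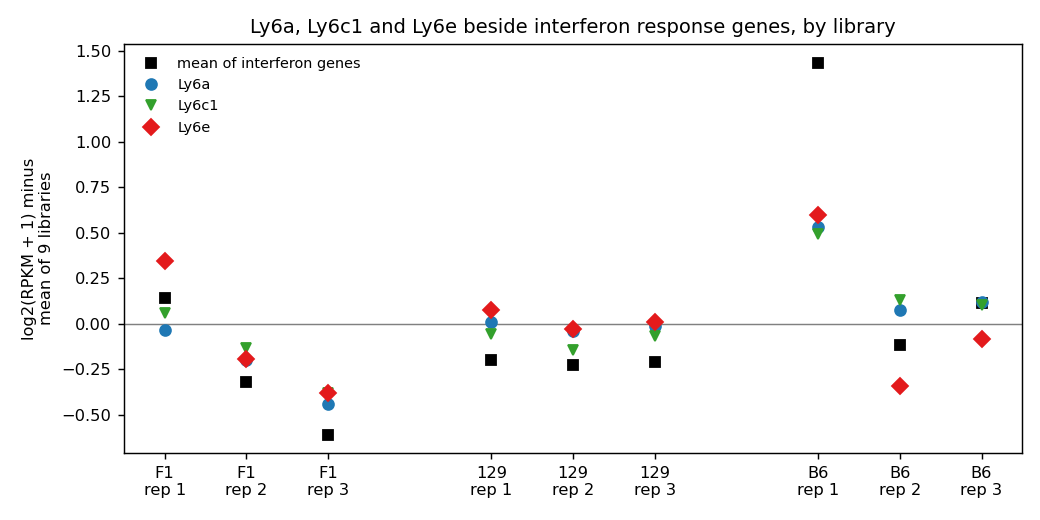
Level of Ly6a, Ly6c1, Ly6e and the mean of the interferon list in each library, as log2(RPKM + 1) minus the mean of the 9 libraries. B6 replicate 1 was the highest library in all 4 series, and the 3 libraries of 129 lay close together.

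Ly6a also marks adipocyte progenitors, and 12 other progenitor markers were set beside it. Of the 11 tested, 5 were higher and 4 lower in 129 than in B6 and 2 were not called, with a median log2 difference of 0.12. The shares of all genes tested were 15.9% higher and 21.7% lower, with a median of -0.03. Pdgfra, a growth factor receptor of these cells, averaged 41.7 ± 3.44 RPKM in F1, 81.2 ± 5.10 in 129 and 43.8 ± 4.22 in B6 (SD, n = 3 each), a log2 difference between 129 and B6 of 0.88 (limma adjusted p = 9.35e-06). Cd34, a surface sialomucin, differed by 0.47 (adjusted p = 8.60e-06). Pdgfra, Cd34 and Eng, given further below, were named for the smallest p of the list, and all were among the 5 higher in 129. The 4 lower in 129 are not named here. The summed level of the list was 355 to 381 RPKM in F1, 453 to 484 in 129 and 390 to 405 in B6. Its mean log2(RPKM + 1) was 3.31 to 3.42 in F1, 3.70 to 3.83 in 129 and 3.70 to 3.74 in B6, so F1 was lowest on both scales, and 129 and B6 overlapped in the mean of logs. Its part in the Ly6a values was not tested. Of the 12 mature adipocyte markers, 4 were higher and 2 lower in 129 than in B6 by limma, and 6 were not called. Over all genes these shares were 15.9% and 21.7%. The smallest p in that list belonged to Ucp1 (log2 difference 2.55, adjusted p = 2.38e-10), Retn (-1.07, adjusted p = 1.58e-06) and Cidea (0.79, adjusted p = 2.81e-05).

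Monocyte and macrophage markers were set beside Ly6c1 and Ly6c2, since Ly6c2 encodes the Ly6C of inflammatory monocytes. Of 9 tested among 13, 0 were higher and 3 lower in 129 than in B6 by limma and 6 were not called, with a median log2 difference of -0.47. Among all genes tested, 15.9% were called higher and 21.7% lower, with a median of -0.03. The 3 lower genes were the complement genes C1qa (-0.71, adjusted p = 0.00381), C1qc (-0.93, adjusted p = 0.00627) and C1qb (-0.65, adjusted p = 0.0332). C1qb lost its call without 129 replicate 1, where it differed by -0.38, and without any 1 library of B6. Without 129 replicate 2, 5 genes of the list were lower, with a median of -0.67, and without 129 replicate 1, 2 were lower, with a median of -0.31. The list summed to 40.5 to 60.3 RPKM in F1, 22.6 to 49.6 in 129 and 47.1 to 59.3 in B6, and its part in the Ly6c1 values was not tested. Lymphocyte markers were under 1 RPKM in every library for 8 of 8 genes, with Cd3g listed at 0 throughout.

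Ly6c2 itself was close to 0. It had 0.0629, 0.0935 and 0.0746 RPKM in F1, 0, 0.0877 and 0 in 129, and 0, 0 and 0.0464 in B6, from 9 reads in F1, 2 in 129 and 1 in B6. A difference between the strains was not detectable at this depth, the ratio of pooled reads of 129 over B6 having an exact 95% interval of 0.0983 to 111.

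Ly6d, a marker of early B-lineage commitment and of keratinocytes, had 0.328, 0.217 and 0.490 RPKM in F1, 0.0608, 0.152 and 0.122 in 129, and 0.113, 0.227 and 0.161 in B6. F1 lay above 129 without overlap and overlapped B6. The reads behind these values were 34 in F1, 6 in 129 and 8 in B6, over an F1 depth greater than that of either parent.

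Ly6h, known from brain where it acts on nicotinic acetylcholine receptors, had 0.663, 0.835 and 0.466 RPKM in F1, 0.922, 0.642 and 1.20 in 129, and 1.48, 1.30 and 1.44 in B6. Every B6 library lay above every library of 129 and F1, which overlapped each other. Means were 0.655 ± 0.185 RPKM in F1, 0.922 ± 0.280 in 129 and 1.41 ± 0.0953 in B6 (SD, n = 3 each), and the log2 difference between 129 and B6 was -0.33 (SE 0.11). It was -0.60 with a pseudocount of 0.1 and -0.68 with voom on the recovered reads.

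Gpihbp1 was low in all groups and lowest in 129. It had 1.07, 0.658 and 0.524 RPKM in F1, 0.422, 0.132 and 0.476 in 129, and 0.880, 0.918 and 1.12 in B6. Every library of 129 lay below every library of F1 and of B6, which overlapped each other. Means were 0.752 ± 0.287 RPKM in F1, 0.343 ± 0.185 in 129 and 0.972 ± 0.128 in B6 (SD, n = 3 each), a ratio of 129 to B6 of 0.353, from 83 reads in F1, 20 in 129 and 56 in B6.

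Endothelial markers, the cell type that defines Gpihbp1, were mostly low. Of 12 listed, 7 were under 1 RPKM in every library and 4 were tested. Of these 4, 1 was higher and 3 lower in 129 than in B6, with a median log2 difference of -0.39. For all genes tested the shares called were 15.9% higher and 21.7% lower, with a median of -0.03. Pecam1, an adhesion protein of endothelial junctions, averaged 1.08 ± 0.0808 RPKM in F1, 0.650 ± 0.0571 in 129 and 1.47 ± 0.193 in B6 (SD, n = 3 each), a log2 difference between 129 and B6 of -0.58 (limma adjusted p = 1.19e-04). Tek, the angiopoietin receptor, differed by -0.50 (adjusted p = 8.64e-05). Eng, a co-receptor of TGF-beta that stands on the progenitor list too, was higher in 129 by 0.74 (adjusted p = 1.09e-06). Its mean was 3.54 RPKM in F1, 7.99 in 129 and 4.37 in B6. The remaining tested gene, lower in 129, is not named here. The 12 genes summed to 15.7 to 16.4 RPKM in F1, 18.9 to 19.6 in 129 and 19.4 to 22.3 in B6. The part of endothelial cells in the Gpihbp1 values was not tested.

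The partners of Gpihbp1 were mostly well expressed. Lpl, the lipase it carries, averaged 2195 ± 14.9 RPKM in F1, 2287 ± 91.2 in 129 and 2487 ± 207 in B6 (SD, n = 3 each), and the log2 difference between 129 and B6 was -0.12 (SE 0.08, limma adjusted p = 0.246). Without B6 replicate 2 the difference was -0.18 and passed the threshold (adjusted p = 0.0431). Lpl was named after its value was seen. Of the 12 tested genes of a 15-gene lipoprotein lipase list, 5 were higher and 3 lower in 129 than in B6 and 4 were not called. The median was -0.04, against -0.03 over all genes, of which 15.9% were called higher and 21.7% lower. Lipg, endothelial lipase, averaged 13.2 ± 0.429 RPKM in F1, 29.7 ± 1.63 in 129 and 11.1 ± 1.81 in B6 (SD, n = 3 each), a log2 difference of 1.36 (adjusted p = 1.25e-06). Among proprotein convertases, which cleave lipases, Pcsk5 differed by 0.55 (adjusted p = 1.27e-05) and Furin by -0.32 (adjusted p = 2.88e-04).

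The F1 libraries were then compared with the mid-parent value, midway between the 129 and B6 group means on the log2(RPKM + 1) scale. This contrast is orthogonal to the difference between the parents and was tested for the 6 members that passed the filter. Ly6a and Ly6h were called below the mid-parent value in F1, 0 members were called above it, and 4 were not called. With no filter on low values, Ly6h was again lower, Ly6a was not called and Ly6d, at 34 reads in F1, was called higher. Over all genes tested, 8.35% were called higher and 14.8% lower in F1 than the mid-parent value. The median was -0.17 over the 6 members and -0.03 over all genes. Ly6h, Psca and Ly6k had passed the filter only or mainly through parental libraries, so the filter bears on the count and the median. With 1 RPKM required in all libraries, 3 members were tested and only Ly6a was called, lower in F1.

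Ly6h differed from the mid-parent value by -0.38 on the log2 scale (SE 0.10, limma adjusted p = 0.0191), and the F1 mean was 0.562 of the mid-parent RPKM. Ly6h had entered the test through libraries of B6 and 129 alone, where it was higher, so the filter favoured a lower value in F1. Nothing is therefore read from its call among the filtered genes. The call was lost without F1 replicate 1 and without F1 replicate 3, where the difference was -0.29, and the adjusted p ran from 0.00847 to 0.0973 over 17 alternatives. Ly6a differed by -0.34 (SE 0.11, adjusted p = 0.0436), with F1 at 0.788 of the mid-parent RPKM. Its call was lost in 7 of 18 alternatives, and the adjusted p ran from 0.00805 to 0.185. The 7 were no filter, median-of-ratios rescaling, and leaving out F1 replicate 2, F1 replicate 3 or any 1 library of 129.

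The other 4 members did not pass. Ly6c1 differed by -0.23 (SE 0.10, limma adjusted p = 0.134), with F1 at 0.849 of the mid-parent RPKM. Ly6e differed by -0.11 (SE 0.19, adjusted p = 0.709). Psca differed by 0.25 (SE 0.09, adjusted p = 0.0809), and the same contrast passed at 0.38 without F1 replicate 2. Ly6k differed by -0.00 (SE 0.12, adjusted p = 0.999). Psca and Ly6k had entered the test mainly through libraries of 129, where they were highest. They were also chosen for their difference between the parents, so nothing is read from whether they passed. For Psca and Ly6k the scale of the mid-parent value matters, since B6 was at or close to 0. Against the mean of the parental RPKM, taken back to the log2 scale, Psca differed by 0.12 (adjusted p = 0.400) and Ly6k by -0.25 (adjusted p = 0.169). In RPKM, the F1 mean stood 61.6% of the way up from B6 to 129 for Psca, and 35.7% for Ly6k. Gpihbp1, not tested, stood 35.0% of the way down from B6 towards 129.

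**Figure D3:**
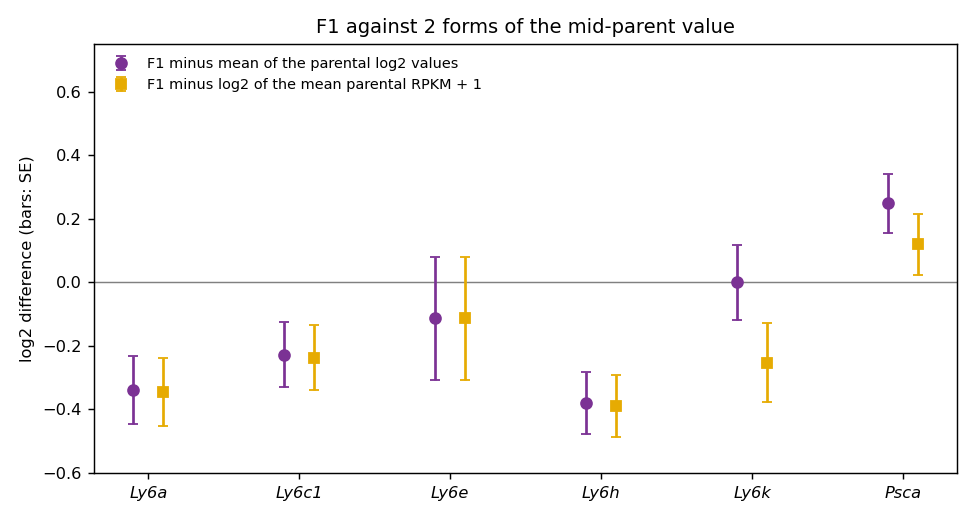
Difference of F1 from the mid-parent value for the 6 tested members, in log2(RPKM + 1), with SE bars, for the mid-parent value taken on the log2 scale and on the RPKM scale. Ly6a and Ly6h lay below 0 and passed the threshold on both scales, and Ly6k moved from -0.00 to -0.25 between them. Ly6h, Ly6k and Psca had passed the filter on low values only or mainly through parental libraries.

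Of the progenitor markers, 9 of the 11 tested were called below the mid-parent value in F1 and 0 above, with a median of -0.43. Leaving out F1 replicate 1 or F1 replicate 3, 7 were called below. For all genes tested, 8.35% were called above and 14.8% below, with a median of -0.03. The interferon list had 1 gene below, 0 above and a median of -0.37, and without B6 replicate 1 a median of -0.13. Without both B6 replicate 1 and F1 replicate 1, chosen after the data were seen, 9 interferon genes were below, with a median of -0.35. The part of either list in the F1 values of Ly6a was not tested.

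Genes around the cluster were described to see how far the difference between strains extended along the chromosome. Within 500 kb of the outermost members there were 49 annotated genes, of which 40 were not members and 18 of these were tested. Of the 18, 5 were higher and 1 lower in 129 than in B6 by limma and 12 were not called, with a median of 0.07 against -0.03 over all genes. Over all genes 15.9% were called higher and 21.7% lower. Without a call rule, 6 had all libraries of 129 above B6 and 1 had all below, against 20.8% and 29.0% of all genes. Arc, a gene of neuronal synapses induced by activity, averaged 1.95 ± 0.0840 RPKM in F1, 2.73 ± 0.0151 in 129 and 0.809 ± 0.233 in B6 (SD, n = 3 each), a log2 difference of 1.05 (SE 0.09, adjusted p = 5.42e-06). Them6, a thioesterase family gene, averaged 5.03 ± 0.244 RPKM in F1, 7.34 ± 0.617 in 129 and 4.52 ± 0.302 in B6, a difference of 0.59 (SE 0.07, adjusted p = 4.30e-05).

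The called neighbours lay mostly beside Psca and Ly6k. In a window of 100 kb around these members, a size set after the values were seen, 4 of 4 tested genes were called, 3 higher and 1 lower in 129. Besides Arc and Them6, Jrk, named after its value was seen, differed by 0.46 (limma adjusted p = 2.75e-04). The one lower in 129 was Lynx1, a family member described next. Beyond Gpihbp1, 2 of 14 tested genes were called, both higher in 129, Nrbp2 by 0.42 (adjusted p = 5.51e-05) and Naprt1 by 0.24 (adjusted p = 0.0130, and 0.0546 without 129 replicate 3), and both were named after their values were seen. The difference in the share called between the windows was not tested.

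**Figure D4:**
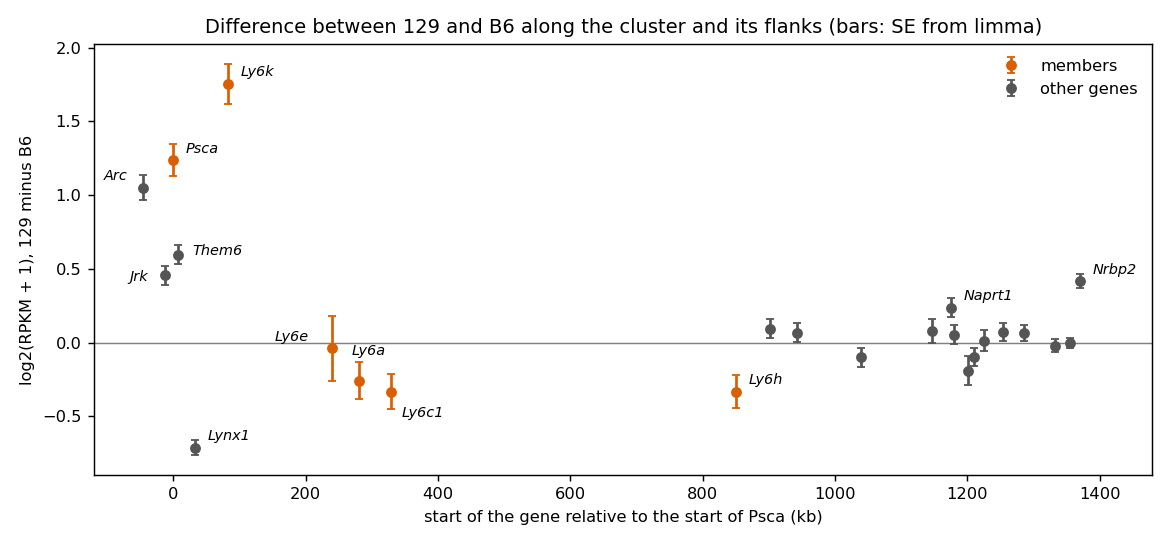
Log2(RPKM + 1) difference of 129 minus B6 for every tested gene of the region, against the start of the gene in kb from the start of Psca, with SE bars from limma. Ly6k (1.76), Psca (1.24) and Arc (1.05) stand highest and Lynx1 (-0.71) lowest, all at the left end.

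Lynx1, a GPI-anchored modulator of nicotinic receptors in brain, was the only one tested of 13 other Ly6 genes listed for this cluster. It averaged 8.46 ± 0.180 RPKM in F1, 6.95 ± 0.390 in 129 and 12.03 ± 0.676 in B6 (SD, n = 3 each), and its log2 difference between 129 and B6 was -0.71 (SE 0.05, limma adjusted p = 2.26e-06). It thus lay between Psca and Ly6k on the chromosome and differed in the opposite direction. Of the other genes, 9 were under 1 RPKM in every library and 3 were not analysed here.

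Family genes on other chromosomes were mostly low as well. Of 19 listed, 16 were under 1 RPKM in every library, 5 of these listed at 0 throughout. All 3 tested were called between 129 and B6, beside 15.9% of all genes called higher and 21.7% lower in 129. Cd59a, a GPI-anchored inhibitor of complement, averaged 11.1 ± 1.07 RPKM in F1, 14.3 ± 1.34 in 129 and 5.86 ± 0.320 in B6 (SD, n = 3 each), a log2 difference of 1.16 (SE 0.08, limma adjusted p = 1.19e-06). Its paralog Cd59b differed by -0.64 (SE 0.06, adjusted p = 2.11e-05), and reads could be split between these copies. Plaur, the urokinase receptor, differed by -0.27 (SE 0.09, adjusted p = 0.0340), a call lost without 129 replicate 2 or 3 and without B6 replicate 1 or 2, where the adjusted p was at most 0.119.

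Most members carry a GPI anchor, so the genes that build it were counted. Of 27 tested among 29, 3 were higher and 6 lower in 129 and 18 were not called by limma, beside 15.9% higher and 21.7% lower over all genes, and the median log2 difference was -0.02 against -0.03. Pigt, a subunit of the transamidase that joins the anchor to proteins, averaged 17.5 ± 0.809 RPKM in F1, 22.2 ± 1.17 in 129 and 15.01 ± 1.21 in B6 (SD, n = 3 each), a difference of 0.54 (adjusted p = 5.92e-05). Piga, of the enzyme complex of the first step, differed by 0.32 (adjusted p = 8.85e-04), and Pgap2, which remodels the finished anchor, by -0.39 (adjusted p = 1.13e-04). Against the mid-parent value, F1 was above for 1 gene and below for 3, and for 0 and 0 without F1 replicate 3. Among all genes tested, F1 was called above for 8.35% and below for 14.8%.

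The genes whose levels followed Psca and Ly6k most closely over the 9 libraries were sought among tested genes other than members. Predicted genes, RIKEN clones and microRNAs were left out. Pearson's r of log2(RPKM + 1) over 9 libraries and 10885 genes compared was highest with Psca for Cyp4b1 (0.986, chromosome 4), Gstp2 (0.984, chromosome 19) and Diap1 (0.983, chromosome 18). With Ly6k it was highest for Crip1 (0.995, chromosome 12), Stard10 (0.986, chromosome 7) and Poldip3 (0.986, chromosome 15). Psca and Ly6k had an r of 0.938 with each other. The 9 points fall into the 3 groups, so these values rest on the group levels and are a description only.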

How the data were processed

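Poly(A) RNA of 9 libraries was sequenced from a TruSeq Stranded mRNA preparation, per the labels' protocols. The authors deposited 1 RPKM per gene and library, and STAR and mm9 are named in the submitters' processing notes. The read counter, annotation and versions were not given in the sources used here. Whether strain variants affected the alignment of reads to mm9 was not tested. RPKM kept steps of 1 read, so assigned reads were recovered, with 100% of rows whole within 0.1 read. Cells of 5 unnamed columns were not used.

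Genes reaching 1 RPKM in 3 or more of the 9 libraries were fitted as log2(RPKM + 1) with limma 3.58.1 (R 4.3.3), 1 mean per group and a mean-variance trend. P-values were two-sided, with Benjamini-Hochberg adjustment over 11542 genes and a threshold of 0.05. An exact permutation test of 3 libraries against 3 was not used, since it cannot reach that threshold. Lists were described by counts and medians only. The fit was checked on simulated data whose spread between libraries was smaller than that of Ly6a, Ly6c1 and Ly6e in F1 and B6. That check does not speak for genes with so wide a spread. All members, up to 3 genes of each list with the smallest p in 129 minus B6, the 3 neighbours with the largest difference and the 3 genes most like Psca or Ly6k were named. Members and lists were chosen with earlier results of these data known. Intervals and floors cover counting error only. Other pseudocounts, filters, scalings, weights, a read-based voom fit, a replicate block and left-out libraries were tried.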

Additional observations from a re-analysis of the deposited data

How the results depend on the processing

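Genes called for 129 minus B6 numbered 4333 (1834 higher, 2499 lower), and 3532 to 4487 with 1 library left out. For F1 minus mid-parent they numbered 2676 (964 higher, 1712 lower), 1799 to 3048 with 1 library left out, and 1393 without B6 replicate 1 and F1 replicate 1, an alternative chosen after seeing the data. Rescaling by median-of-ratios factors gave 2184 higher and 2075 lower for 129 minus B6, and 1298 higher and 1348 lower for F1 minus mid-parent. The members called were 2, against 1 with RPKM of at least 1 required in all libraries (Ly6a, with 3 members tested), 1 after rescaling (Ly6h), 4 with voom (Ly6a, Ly6h, Ly6k and Psca), 2 with no filter (Ly6d higher, Ly6h lower) and 0 to 2 with 1 library left out, 0 being without F1 replicate 3. Without B6 replicate 1 and F1 replicate 1, Ly6h lost its call at -0.37 and Ly6c1 passed at -0.27. With sample weights Ly6c1 passed at -0.33. Psca passed with a pseudocount of 0.1 (1.25) and with voom (2.10).

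The 129 minus B6 difference of Psca was 3.86 with a pseudocount of 0.1, 5.81 with voom and 1.20 to 1.29 with 1 library left out, and that of Ly6k was 4.30, 5.48 and 1.63 to 1.84. Ly6e turned to 0.23 without B6 replicate 1, with or without F1 replicate 1, its range with 1 library left out being -0.24 to 0.23, and was -0.35 with sample weights. Against the mid-parent value Ly6e ranged from -0.32 to 0.038 (without F1 replicate 3), with 0.022 without B6 replicate 1, and Ly6k from -0.13 to 0.14 with 1 library left out. Ly6k was 0.75 with a pseudocount of 0.1, 0.0065 after rescaling and 1.19 with voom, where its adjusted p was 0.0288. The cause was not tested.

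The replicate block gave 4267 and 2587 genes and 2 members, and changed no member's call. Across the genes tested, libraries with the same number correlated at -0.19 to 0.22 in their deviations (9 pairs). Those with different numbers correlated at -0.20 to 0.23 (18 pairs). This does not settle whether the numbers mark a shared batch for single genes. With the block, the SE of the 129 minus B6 difference went from 0.224 to 0.142 for Ly6e, and from 0.113 to 0.122 for Ly6h. Requiring 1 RPKM in all libraries gave no value for Ly6h, Ly6k or Psca. Depth limits Psca, Ly6k, Ly6c2 and Ly6d in B6, where at most 8 reads stood behind each.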
